A study of Mus musculus with 32 samples.

Results

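The genes described here are the ADAMTS proteinases that cleave cartilage proteoglycans and related matrix proteins, Adamts1, Adamts4, Adamts5, Adamts9 and Adamts12, and the tissue inhibitors of metalloproteinases, Timp1, Timp2, Timp3 and Timp4. They were chosen by name, with earlier results of these data known. These 9 genes were followed among the 41388 genes of the count files. RNA was sequenced from primary mouse chondrocytes labelled as sternal, which the study's methods describe as isolated from the sterna and ribs of pups at postnatal days 1 to 3 and which were not passaged. There were 32 libraries in 16 groups of 2, all from mice labelled C57BL/6. Wild-type chondrocytes were left untreated or received FX11, an inhibitor of lactate dehydrogenase A, at 40 µM, IL-1β at 10 ng/mL, or both, for 24 h. Chondrocytes labelled LDHA flox, NAMPT flox or NFKBIZ flox, here called Ldha f/f, Nampt f/f or Nfkbiz f/f (the Ldha, Nampt and Nfkbiz lines), carried a gene that Cre recombinase can delete. Every culture of the 3 floxed lines received an adenovirus for 24 h, either one encoding GFP (GFP virus) or one encoding Cre (Cre virus). The study's methods describe a Cre virus that also encodes eGFP, except for fluorescent assays of reactive oxygen species. Each culture was then kept with or without IL-1β for a further 24 h. Ldha encodes lactate dehydrogenase A, Nampt encodes an enzyme that recycles nicotinamide into NAD, and Nfkbiz encodes IκB-ζ, a nuclear partner of NF-κB. Cells without floxed alleles that received Cre virus were not analysed here, so the effects of Cre virus and of the deletion cannot be told apart. The labels do not say whether the 2 libraries of a group came from separate cultures or animals, so p-values measure only the spread between these libraries.

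Aggrecan gives cartilage its resistance to compression, and its loss is an early event when cartilage breaks down. ADAMTS proteinases are secreted zinc enzymes made as inactive precursors, and ADAMTS4 and ADAMTS5 are regarded as the principal aggrecanases of cartilage. TIMPs bind the active site of matrix metalloproteinases and some ADAMTS enzymes, and TIMP3 is the member that inhibits ADAMTS4 and ADAMTS5 strongly. IL-1β is an inflammatory cytokine widely used to set off matrix breakdown in cultured chondrocytes. Transcript levels do not give the amount or activity of the proteins.

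All positions are on GRCm38, the build of the count files, and all 9 genes are protein-coding. Adamts1 (ENSMUSG00000022893, chr16:85793827-85803113) and Adamts5 (ENSMUSG00000022894, chr16:85858170-85901125) lie near each other on the minus strand of chromosome 16. Adamts4 (ENSMUSG00000006403, chr1:171250421-171260637, plus strand), Adamts9 (ENSMUSG00000030022, chr6:92772699-92943492, minus strand) and Adamts12 (ENSMUSG00000047497, chr15:11064790-11346867, plus strand) lie on 3 other chromosomes. Each TIMP gene lies within or across another gene. Timp1 (ENSMUSG00000001131, chrX:20870166-20874735, plus strand), Timp3 (ENSMUSG00000020044, chr10:86300372-86349506, plus strand) and Timp4 (ENSMUSG00000030317, chr6:115245616-115251849, minus strand) overlap the synapsin genes Syn1, Syn3 and Syn2 on the opposite strand. Timp2 (ENSMUSG00000017466, chr11:118301069-118355740, minus strand) overlaps Cep295nl on its own strand. Exons were shared only by Timp3 with Syn3, over 1733 bases, and by Adamts9 with A730049H05Rik, over 1381 bases, and Gm15737, over 424 bases. Reads there could be split or dropped in counting whose strand setting is not given in the sources used here. Syn3 had 26 to 440 counts in a library where Timp3 had 7546 to 103245. The other two had at most 30 counts where Adamts9 had at least 239.

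The stretches just before the annotated starts of Adamts1, Timp1 and Timp3 are shown because these 3 genes moved in different ways with IL-1β, as given below. RefSeq (GRCm38.p6) held promoter entries for 7 of the 9 members, and Adamts4 and Adamts5 are only named. Each is written 5′ to 3′ on the gene's own strand and ends at the base before the start in the count files' annotation. Capitals mark GGGCGG, the GC box that Sp1 family factors bind, or its complement on the other strand, and TATAAA, the TATA box. Those of Adamts1 and Timp1 cover 250 bases, chr16:85803114-85803363 on the minus strand and chrX:20869916-20870165 on the plus strand, and that of Timp3 covers the first 210 bases of its window, chr10:86300162-86300371 on the plus strand.
Adamts1: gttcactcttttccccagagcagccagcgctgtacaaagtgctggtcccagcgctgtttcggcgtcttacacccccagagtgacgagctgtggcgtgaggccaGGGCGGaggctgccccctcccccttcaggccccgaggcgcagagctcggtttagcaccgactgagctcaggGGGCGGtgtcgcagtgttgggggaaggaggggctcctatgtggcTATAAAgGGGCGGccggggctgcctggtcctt
Timp1: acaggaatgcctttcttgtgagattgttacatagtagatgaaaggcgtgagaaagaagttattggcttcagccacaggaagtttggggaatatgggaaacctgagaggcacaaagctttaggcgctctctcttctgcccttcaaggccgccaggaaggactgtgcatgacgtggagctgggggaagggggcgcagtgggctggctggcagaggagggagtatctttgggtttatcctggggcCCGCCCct
Timp3: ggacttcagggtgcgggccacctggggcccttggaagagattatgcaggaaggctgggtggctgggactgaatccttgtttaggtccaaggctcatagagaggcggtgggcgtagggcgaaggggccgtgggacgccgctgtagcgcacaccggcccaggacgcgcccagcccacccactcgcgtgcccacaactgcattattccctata

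Adamts1 had a TATA box 32 bases before its start and GC boxes 147, 76 and 25 bases before it. Timp1 had a GC box on the other strand 8 bases before its start. In the stretch printed for Timp3 neither motif was found, and the GC box of its window, on the other strand 15 bases before the RefSeq start, lies beyond that stretch. Both strands of 32851 promoter windows of 250 bases were searched for the same letters, and GGGCGG was found in 32.7% of them and TATAAA in 12.4%. TGANTCA, the AP-1 motif, was found in 6.75% of windows and the NF-κB consensus in 3.9%, and neither occurred in the windows of the 7 members. These matches describe letters in a window and say nothing of whether a factor binds.

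Library totals ranged from 15830658 to 39959888 counts, with a median of 25363482. Library titles fall into 2 numbered series, here library set 1 with 12 libraries and library set 2 with 20, and both libraries of every Nfkbiz f/f group belong to set 2. At the same IL-1β state, each deleted gene was lower with Cre virus than with GFP virus in all libraries of its line. Ldha had 869 to 1560 CPM with GFP virus and 72.9 to 118 CPM with Cre virus in Ldha f/f, and Nampt had 54.6 to 68.4 CPM against 4.63 to 6.86 CPM in Nampt f/f. Nfkbiz in Nfkbiz f/f was 16.1 and 17.0 CPM with GFP virus against 9.65 and 8.28 CPM with Cre virus. With IL-1β it was 235 and 229 CPM against 29.5 and 32.3 CPM. Under IL-1β, Nfkbiz was also lower with Cre virus in the lines where another gene is floxed. It was 177 and 164 CPM against 69.7 and 66.9 CPM in Ldha f/f. The values in Nampt f/f were 202 and 204 CPM against 67.7 and 60.8 CPM. The part of the deletion in the fall under IL-1β was not tested. In wild type, Mmp3, a matrix metalloproteinase that IL-1β induces, stood at 0.784 CPM and Il6 at 0 in the library of set 2 labelled IL-1β. In that labelled FX11 of the same set, Mmp3 was at 2020 CPM and Lcn2 at 12500 CPM. Mmp3 was at 9120 CPM under the IL-1β label of set 1. Wild-type groups were therefore kept apart from the other comparisons and are described last.

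CPM here are the counts scaled to a common library size after TMM normalisation over the 32 libraries, and RPKM are the same values per kilobase of exon, used only to set genes side by side. By median RPKM over the 32 libraries, the 3 abundant inhibitors Timp1, Timp3 and Timp2 stood at 225, 172 and 168 RPKM. The proteinases were lower, with Adamts1 at 24.5, Adamts5 at 4.21, Adamts9 at 1.71, Adamts4 at 1.14 and Adamts12 at 0.966 RPKM. Timp4 had 0 to 22 counts in a library, at most 0.808 CPM, did not pass the filter on low counts, and was not tested. The other 8 members were tested in every comparison. Between the lowest and highest of the 24 libraries of the floxed lines, Adamts4 spanned 15.3-fold, Adamts5 10.2-fold and Timp2 only 1.86-fold.

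**Figure D1:**
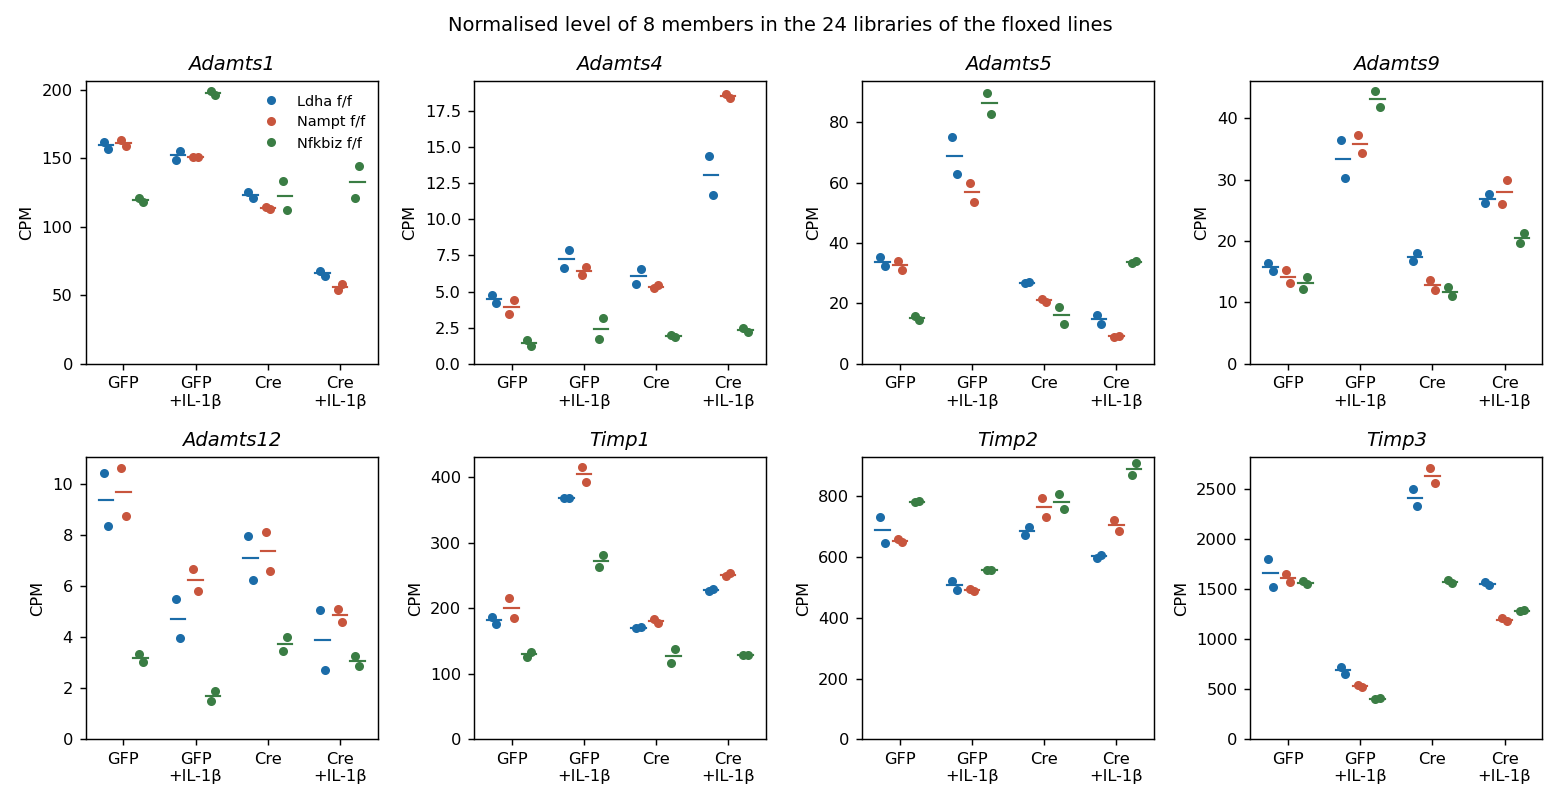
Normalised level in CPM of the 8 tested members in the 24 libraries of the floxed lines, with 1 point a library, a bar at the mean of each group of 2, and colours for the lines. Timp3 falls to between 404 and 728 CPM with GFP virus and IL-1β, and Adamts4 reaches 11.7 to 18.7 CPM only with Cre virus and IL-1β in Ldha f/f and Nampt f/f.

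The order of the 12 groups of the floxed lines differed between genes. Adamts5 was highest in Nfkbiz f/f with GFP virus and IL-1β, at 86.2 ± 4.79 CPM (SD, n = 2), and lowest in Nampt f/f with Cre virus and IL-1β, at 9.01 ± 0.292 CPM. Adamts4 had its highest mean in that last group, at 18.5 ± 0.155 CPM, and its lowest in Nfkbiz f/f with GFP virus alone, at 1.44 ± 0.3 CPM. Adamts1 ran from 197 ± 2.02 CPM down to 56.1 ± 3.01 CPM between the same groups as Adamts5. Timp3 was highest in Nampt f/f with Cre virus alone, at 2640 ± 104 CPM, and lowest in Nfkbiz f/f with GFP virus and IL-1β, at 407 ± 5.11 CPM. Of the 11 pairs of neighbours in each order, 7 lay apart by more than the larger of their SDs for Adamts5, Timp1 and Timp3, 6 for Adamts1, Adamts4 and Timp2, 5 for Adamts9 and 4 for Adamts12. The middle of the orders was close. Timp3 means were 1660 and 1610 CPM in Ldha f/f and Nampt f/f with GFP virus and 1580 and 1560 CPM in Nfkbiz f/f with Cre virus and GFP virus. Next came 1550 CPM in Ldha f/f with Cre virus and IL-1β. Neighbours among these means lay within the larger of their SDs. Groups that are not neighbours could lie further apart, as did 1610 ± 51.5 CPM and 1550 ± 22 CPM. Groups of 2 make these SDs rough.

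The first comparison asks what IL-1β did to the set in cells that kept their floxed gene. With GFP virus, IL-1β raised Adamts4, Adamts5, Adamts9 and Timp1 and lowered Adamts12, Timp2 and Timp3 over the 3 lines, while Adamts1 did not pass the test. That is 7 of the 8 tested members at an adjusted p of 0.05 or less (edgeR's quasi-likelihood test, Benjamini-Hochberg adjustment over all genes tested), where 56.2% of the 14283 genes tested passed. A share of 28% of all genes passed as higher and 28.3% as lower. The median log2 fold change was 0.47 for the members and −0.01 for all genes.

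Adamts5, the aggrecanase most tied to cartilage loss in mice, had 35.2 and 32.5 CPM in Ldha f/f with GFP virus and 75.0 and 62.8 CPM with IL-1β as well. In Nampt f/f it went from 34.0 and 31.1 CPM to 59.9 and 53.6 CPM, and in Nfkbiz f/f from 15.7 and 14.6 CPM to 89.6 and 82.8 CPM. All 6 libraries with IL-1β lay above the 6 without it. The log2 fold change over the 12 libraries was 1.41 (SE 0.19, adjusted p = 9.22e-06), and it was 1.02 in Ldha f/f, 0.82 in Nampt f/f and 2.52 in Nfkbiz f/f, each past the threshold.

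Adamts9, which cleaves versican and aggrecan, had 12.1 to 16.4 CPM in the 6 libraries without IL-1β, with a median of 14.6, and 30.2 to 44.4 CPM in the 6 with it, with a median of 36.8. The groups did not overlap, and the log2 fold change was 1.38 (SE 0.09, adjusted p = 7.71e-10). Adamts4, the other principal aggrecanase, was at 1.22 to 4.73 CPM without IL-1β and 1.70 to 7.90 CPM with it. These ranges overlapped because Nfkbiz f/f was low in both states, with 1.65 and 1.22 CPM without IL-1β and 1.70 and 3.17 CPM with it. The log2 fold change of Adamts4 over the lines was 0.74 (SE 0.15, adjusted p = 0.000401). It was 0.69 in Ldha f/f (adjusted p = 0.0186) and 0.76 in Nampt f/f (adjusted p = 0.00455), and 0.79 (SE 0.37, adjusted p = 0.14) in Nfkbiz f/f, where 29 to 73 counts stood behind a value. The Ldha f/f call was lost without the second GFP library (0.61) or the second GFP and IL-1β library (0.56), and the Nampt f/f call without the first GFP library (0.56). With the wild-type libraries included as labelled, the Adamts4 value over 16 libraries was 0.54 (adjusted p = 0.0676).

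Adamts1, which cleaves aggrecan and versican less efficiently and was the most abundant proteinase of the set, did not move as one. It had 162 and 157 CPM against 149 and 155 CPM with IL-1β in Ldha f/f, and 163 and 159 CPM against 151 and 151 CPM in Nampt f/f. It rose in Nfkbiz f/f from 121 and 118 CPM to 199 and 196 CPM, a log2 fold change of 0.74 (SE 0.11, adjusted p = 0.000321). The values were −0.07 in both other lines, and 0.20 (SE 0.10, adjusted p = 0.11) over the 3. Adamts12, known for cleaving cartilage oligomeric matrix protein, was at 3.04 to 10.6 CPM without IL-1β and 1.5 to 6.65 CPM with it. Its log2 fold change was −0.82 (SE 0.11, adjusted p = 8.46e-06) over the lines, and −0.98, −0.61 and −0.88 in the Ldha, Nampt and Nfkbiz lines. These calls within a line were each lost when 1 library was left out, with values of −0.82 or −0.79 in Ldha f/f, −0.46 or −0.53 in Nampt f/f and −0.72 to −1.06 in Nfkbiz f/f, whereas the call over 12 libraries was kept without each of them.

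Among the inhibitors, Timp3 fell furthest. It had 1800 and 1520 CPM in Ldha f/f, 1650 and 1570 CPM in Nampt f/f, and 1580 and 1550 CPM in Nfkbiz f/f. With IL-1β these became 728 and 652 CPM, 546 and 525 CPM, and 404 and 411 CPM. Every library with IL-1β was below every library without it, and the log2 fold change was −1.59 (SE 0.08, adjusted p = 3.93e-11), a 3-fold decrease. Timp1, an inhibitor of most matrix metalloproteinases with little effect on ADAMTS4 and ADAMTS5, had 125 to 215 CPM without IL-1β, with a median of 180, and 263 to 416 CPM with it, with a median of 368. Its groups did not overlap either, and its log2 fold change was 1.05 (SE 0.04, adjusted p = 1.34e-12), or 2.06-fold. Timp2, which inhibits matrix metalloproteinases and takes part in the activation of MMP2, had 646 to 785 CPM without IL-1β and 488 to 559 CPM with it, a log2 fold change of −0.44 (SE 0.04, adjusted p = 6.18e-08). Within Nfkbiz f/f its value was −0.47, and the call was lost, at the same value, without the first library with GFP virus and IL-1β.

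The 6 libraries with IL-1β and the 6 without did not overlap for 5 of the 8 members, with Adamts5, Adamts9 and Timp1 above and Timp2 and Timp3 below. The same was true of 20.4% of the 14283 genes. Summed markers of chondrocytes (Col2a1, Acan, Sox9, Matn1, Hapln1, Col9a1, Comp and Snorc) moved as well, from 62700 to 80600 CPM without IL-1β to 23700 to 28300 CPM with it, and 8 of the 8 were lower. All 8 were present in these libraries. In bulk RNA, fewer cells of a type and less RNA per cell cannot be told apart, and the part of this shift in the members' values was not tested. Macrophage markers summed to 11.2 to 19 CPM without IL-1β and 20.3 to 43.4 CPM with it, and Cd68 and Itgam were higher among the 3 of 5 tested. Fibroblast or perichondrium markers were lower for 3 of 5 genes, and in Ldha f/f their sum went from 4180 and 4300 CPM to 3130 and 3250 CPM. Of the remaining lists, 1 of 1 erythroid marker tested was higher, 1 of 3 muscle markers was lower and 0 of 3 endothelial markers passed. The part of these shifts was not tested either.

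**Figure D2:**
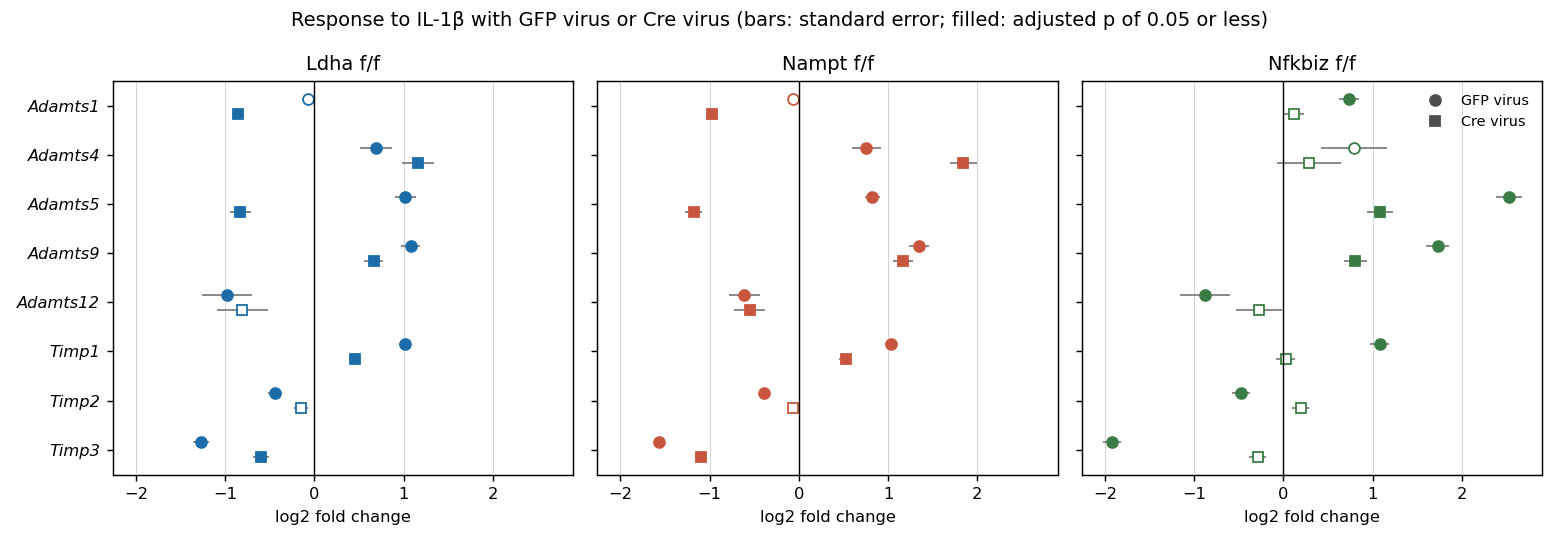
Log2 fold change with IL-1β for the 8 members in each floxed line, with GFP virus (circles) or Cre virus (squares); bars are standard errors and filled symbols have an adjusted p of 0.05 or less. Adamts5 is at 1.02 with GFP virus and −0.83 with Cre virus in Ldha f/f and at 0.82 and −1.18 in Nampt f/f, and stays above 0 in Nfkbiz f/f.

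Within a line, 7 of 8 members passed the test with GFP virus, against 27.9% of genes in Ldha f/f, 35% in Nampt f/f and 26.8% in Nfkbiz f/f. In one model of all 32 libraries 0, 0 and 3 of 8 passed, against 6.3%, 9.73% and 9.3% of genes. The same comparison in cells given Cre virus asks whether the response was kept after deletion. There 6 of 8 members passed in Ldha f/f (35.9% of genes), 7 of 8 in Nampt f/f (43.9%) and 2 of 8 in Nfkbiz f/f (22.1%). In the 32-library model 0, 2 and 0 of 8 passed, against 15.6%, 20.3% and 3.89% of genes. Adamts5 changed direction in 2 lines. With Cre virus it went from 26.7 and 27.0 CPM to 16.1 and 13.2 CPM with IL-1β in Ldha f/f, a log2 fold change of −0.83 (SE 0.12, adjusted p = 0.000509). It went in Nampt f/f from 21.5 and 20.6 CPM to 8.81 and 9.22 CPM, −1.18 (SE 0.09, adjusted p = 2.56e-06). It rose in Nfkbiz f/f from 18.8 and 13.2 CPM to 33.3 and 34.1 CPM, 1.08 (SE 0.14, adjusted p = 0.000245). IL-1β thus lowered Adamts5 in Cre-treated Ldha f/f and Nampt f/f cells and raised it in all other floxed groups.

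Adamts1 fell with IL-1β in the same Cre-treated groups, from 125 and 121 CPM to 67.6 and 64.1 CPM in Ldha f/f and from 114 and 113 CPM to 53.9 and 58.2 CPM in Nampt f/f. The log2 fold changes were −0.86 (SE 0.07, adjusted p = 9.32e-06) and −0.97 (SE 0.06, adjusted p = 3.94e-07). With Cre virus in Nfkbiz f/f it had 133 and 112 CPM without and 121 and 144 CPM with IL-1β, which overlapped. Adamts4 went the other way, from 5.52 and 6.56 CPM to 14.4 and 11.7 CPM in Ldha f/f and from 5.22 and 5.46 CPM to 18.7 and 18.4 CPM in Nampt f/f. These rises were 1.16 (SE 0.18, adjusted p = 0.000713) and 1.85 (SE 0.15, adjusted p = 2.49e-06) on the log2 scale, against 0.29 in Nfkbiz f/f, which did not pass. Adamts9 rose with IL-1β in all 3 lines after Cre virus, by 0.66, 1.16 and 0.81 in the Ldha, Nampt and Nfkbiz lines. Adamts12 was at −0.81 in Ldha f/f (adjusted p = 0.0521), at −0.55 in Nampt f/f (adjusted p = 0.0235) and at −0.28 in Nfkbiz f/f, and the Nampt f/f call was lost when 1 of 2 libraries was left out (−0.39 or −0.47).

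Timp1 rose by 0.45 and 0.52 after Cre virus in Ldha f/f and Nampt f/f, and was 0.02 in Nfkbiz f/f, where it had 117 and 138 CPM without and 129 and 129 CPM with IL-1β. Timp3 fell by 0.60 in Ldha f/f and 1.09 in Nampt f/f, and was −0.29 (adjusted p = 0.052) in Nfkbiz f/f. Timp2 passed in none of the 3 lines after Cre virus, with values of −0.15, −0.07 and 0.20.

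Comparing Cre virus with GFP virus asks what the deletion, together with the Cre virus, did to each gene. Without IL-1β, 2 of 8 members passed in Ldha f/f, where 5.52% of genes passed, and both calls depended on single libraries. With library set as a replicate block, 3 of 8 passed, against 12.6% of genes. Adamts1 was 162 and 157 CPM with GFP virus and 125 and 121 CPM with Cre virus, a log2 fold change of −0.39 (SE 0.07, adjusted p = 0.00914), and its call was lost without either Cre library (−0.41 and −0.38). Timp3 was 1800 and 1520 CPM against 2500 and 2330 CPM, 0.52 (SE 0.09, adjusted p = 0.0113), and its call was lost without the first Cre library (0.47).

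In Nampt f/f 4 of 8 members passed, against 14.4% of genes, and with the replicate block 7 of 8 passed, against 26.7%. The members added by the block were Adamts4, Adamts12 and Timp1. Adamts1 fell from 163 and 159 CPM to 114 and 113 CPM (−0.51, SE 0.06, adjusted p = 0.000234) and Adamts5 from 34.0 and 31.1 CPM to 21.5 and 20.6 CPM (−0.64, SE 0.09, adjusted p = 0.000699). Timp3 rose from 1650 and 1570 CPM to 2710 and 2560 CPM (0.70, SE 0.05, adjusted p = 1.54e-05). For each of the 3 the groups did not overlap, and each call was kept without any 1 library. Timp2 was 0.21 (adjusted p = 0.0373), a call lost without any 1 of the 4 libraries compared (0.16 to 0.27). In Nfkbiz f/f 0 of 8 members passed, against 0.26% of genes, with log2 fold changes from −0.17 for Adamts9 to 0.41 for Adamts4. At an unadjusted p of 0.05 or less 5.93% of all genes passed there.

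Cell markers moved beside these values too. Chondrocyte markers were lower with Cre virus alone for 6 of 8 genes in Ldha f/f, with sums of 63900 and 64300 CPM against 46300 and 46300 CPM. They were lower for 8 of 8 in Nampt f/f, with 62700 and 64200 CPM against 44600 and 44500 CPM, and for 0 of 8 in Nfkbiz f/f. Endothelial markers summed to 3.5 and 3.27 CPM against 10.1 and 11 CPM in Ldha f/f and to 3.55 and 4.26 CPM against 13.9 and 14 CPM in Nampt f/f, with 1 of 4 genes higher in each. Fibroblast or perichondrium markers were lower for 2 of 5 and 3 of 5 genes in these lines. Of all genes, 2.09% and 6.07% passed as lower with Cre virus alone in Ldha f/f and Nampt f/f, and 3.43% and 8.3% as higher. The part of these shifts in the members' differences was not tested.

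With IL-1β present the differences were wider. Over all 3 lines, Cre virus went with lower Adamts1, Adamts5 and Timp1 and with higher Timp2 and Timp3. The members passing were 6 of 8 in Ldha f/f (34% of genes), 7 of 8 in Nampt f/f (48.4%) and 6 of 8 in Nfkbiz f/f (17.4%). A single model of all 32 libraries left 2, 4 and 1 of 8 past the threshold, against 13.6%, 25.6% and 3.61% of genes. Over the 8 tested members the median log2 fold changes were −0.27, −0.34 and −0.34, where those of all genes were −0.02, −0.03 and −0.01.

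Of the 5 proteinases, Adamts5 differed most in each line. With IL-1β it had 75.0 and 62.8 CPM with GFP virus and 16.1 and 13.2 CPM with Cre virus in Ldha f/f, a log2 fold change of −2.20 (SE 0.12, adjusted p = 1.04e-06) or 4.61-fold lower. For Nampt f/f, 59.9 and 53.6 CPM became 8.81 and 9.22 CPM, −2.64 (SE 0.09, adjusted p = 7.05e-09) or 6.24-fold lower. For Nfkbiz f/f, 89.6 and 82.8 CPM became 33.3 and 34.1 CPM, −1.37 (SE 0.14, adjusted p = 1.92e-05) or 2.59-fold lower. In Ldha f/f and Nampt f/f these Cre libraries were also below the Cre libraries without IL-1β, whereas in Nfkbiz f/f they stayed above them.

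Adamts4 moved in the opposite direction to Adamts5 in 2 lines. With IL-1β it had 6.66 and 7.90 CPM with GFP virus and 14.4 and 11.7 CPM with Cre virus in Ldha f/f (0.88, SE 0.18, adjusted p = 0.00385). In Nampt f/f it had 6.17 and 6.73 CPM against 18.7 and 18.4 CPM (1.55, SE 0.15, adjusted p = 9.87e-06). In Nfkbiz f/f it had 1.70 and 3.17 CPM against 2.49 and 2.17 CPM, and the Cre values lay within the range of the GFP values (−0.09).

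Adamts1 was lower with Cre virus in each line, at 149 and 155 CPM against 67.6 and 64.1 CPM in Ldha f/f (−1.18, SE 0.07, adjusted p = 1.52e-06), 151 and 151 CPM against 53.9 and 58.2 CPM in Nampt f/f (−1.42, SE 0.06, adjusted p = 2.51e-08), and 199 and 196 CPM against 121 and 144 CPM in Nfkbiz f/f (−0.59, SE 0.11, adjusted p = 0.00286). No Cre library reached a GFP library. Adamts9 was 44.4 and 41.8 CPM against 19.6 and 21.3 CPM in Nfkbiz f/f (−1.10, SE 0.12, adjusted p = 5.8e-05). In Nampt f/f it was 37.2 and 34.4 CPM against 26.0 and 29.9 CPM (−0.34, adjusted p = 0.0239), a call lost when 1 of 2 libraries was left out (−0.33 or −0.28), and in Ldha f/f it was −0.29 (adjusted p = 0.0538). Adamts12 passed in no line, with −0.24, −0.34 and 0.82 (adjusted p = 0.0632) in the Ldha, Nampt and Nfkbiz lines.

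Timp3 was higher with Cre virus, at 1570 and 1540 CPM against 728 and 652 CPM in Ldha f/f (1.19, SE 0.09, adjusted p = 1e-05), 1210 and 1180 CPM against 546 and 525 CPM in Nampt f/f (1.18, SE 0.06, adjusted p = 4.46e-08), and 1280 and 1290 CPM against 404 and 411 CPM in Nfkbiz f/f (1.64, SE 0.10, adjusted p = 2.6e-07). The groups lay far apart in each line, and every Cre library with IL-1β in Nampt f/f and Nfkbiz f/f remained below the GFP libraries without IL-1β. Timp1, the inhibitor that rose with IL-1β, was lower with Cre virus, at 368 and 368 CPM against 226 and 229 CPM in Ldha f/f (−0.67, SE 0.07, adjusted p = 4.78e-05) and 416 and 393 CPM against 249 and 253 CPM in Nampt f/f (−0.67, SE 0.07, adjusted p = 2.04e-05). In Nfkbiz f/f it was 263 and 281 CPM against 129 and 129 CPM (−1.09, SE 0.10, adjusted p = 1.31e-05), within the 117 to 138 CPM of that line's libraries without IL-1β. Timp2 was higher by 0.54 in Nampt f/f and 0.66 in Nfkbiz f/f, and by 0.27 (adjusted p = 0.0254) in Ldha f/f, where the call was lost without any 1 of the 4 libraries compared (0.24 to 0.28).

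**Figure D3:**
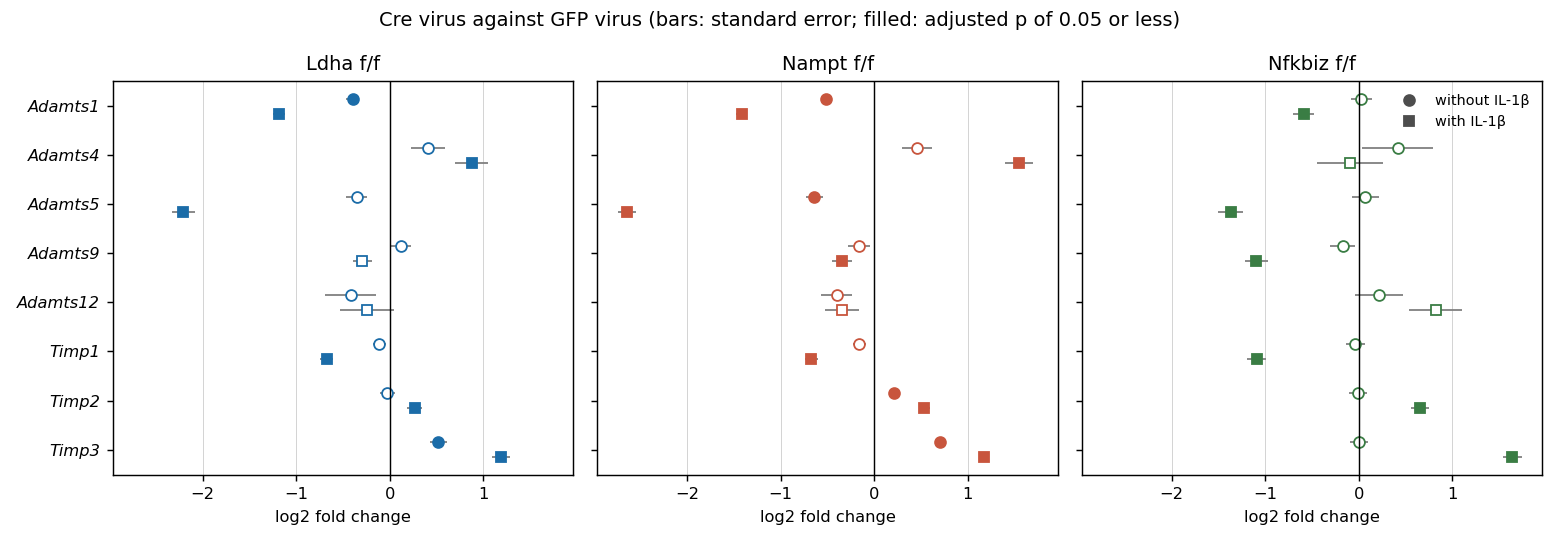
Log2 fold change of Cre virus against GFP virus for the 8 members in each floxed line, without IL-1β (circles) or with it (squares); bars are standard errors and filled symbols have an adjusted p of 0.05 or less. All circles of Nfkbiz f/f lie between −0.17 and 0.41, while with IL-1β Adamts5 is at −2.20, −2.64 and −1.37 in the Ldha, Nampt and Nfkbiz lines.

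Chondrocyte markers also differed beside these values. Their sum was 24000 and 24500 CPM with GFP virus and IL-1β against 13800 and 13000 CPM with Cre virus and IL-1β in Ldha f/f, and 24200 and 23700 CPM against 14300 and 14000 CPM in Nampt f/f. The sum in Nfkbiz f/f was 28300 and 26100 CPM against 31800 and 34200 CPM. The number of markers lower with Cre virus and IL-1β was 7, 6 and 1 of 8 in the 3 lines, against 17%, 23.4% and 9.2% of all genes. The part of these markers in the members' differences was not tested. Over all 32 libraries the fibroblast or perichondrium markers summed to 507 to 6830 CPM, below the 13000 to 83600 CPM of chondrocyte markers. With Cre virus and IL-1β they summed to 2020 and 2050 CPM in Ldha f/f and 1720 and 1770 CPM in Nampt f/f. In Nfkbiz f/f they summed to 523 and 587 CPM. Markers of the remaining cells were low, with sums of 11.2 to 112 CPM for macrophages and 2.39 to 26.3 CPM for endothelium. These sums were 1.85 to 194 CPM for skeletal muscle and 0.549 to 33.5 CPM for erythroid cells. Of their defining genes, Hbb-bt was at 0 in 12 libraries, Ckm in 8, and Cdh5 and Myog in 1 each. With Cre virus and IL-1β the fibroblast markers were lower for 4 of 5 genes in Ldha f/f and in Nampt f/f and for 1 of 4 in Nfkbiz f/f. Endothelial Kdr was higher by 3.27 and 3.45 in Ldha f/f and Nampt f/f, while Pecam1, which defines the same cells, was at −0.79 (adjusted p = 0.209) and −1.74 (adjusted p = 0.00214).

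The interaction of Cre virus with IL-1β tests whether the response to IL-1β differed between the viruses. It was past the threshold for 4 of 8 members in Ldha f/f (11.5% of genes), 6 of 8 in Nampt f/f (22%) and 6 of 8 in Nfkbiz f/f (5.19%). Adamts1, Adamts5, Timp1 and Timp3 passed in all 3. For Adamts5 the interaction was −1.85 (SE 0.17, adjusted p = 0.000145) in Ldha f/f, −2.00 (SE 0.13, adjusted p = 4.79e-06) in Nampt f/f and −1.44 (SE 0.20, adjusted p = 0.000996) in Nfkbiz f/f on the log2 scale. For Timp3 it was 0.67 (SE 0.13, adjusted p = 0.00935), 0.47 (SE 0.08, adjusted p = 0.00152) and 1.64 (SE 0.14, adjusted p = 2.44e-05). Adamts4 passed in Nampt f/f alone, at 1.09 (SE 0.22, adjusted p = 0.00499), beside 0.47 in Ldha f/f (adjusted p = 0.301) and −0.50 in Nfkbiz f/f (adjusted p = 0.682). With library set as a replicate block, the interaction passed for 6 of 8 members in Ldha f/f (21.2% of genes) and 6 of 8 in Nampt f/f (35%).

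The interaction of Timp1 was −0.56 and −0.51 in Ldha f/f and Nampt f/f and −1.06 in Nfkbiz f/f, and that of Adamts1 was −0.79, −0.90 and −0.62. The calls of Adamts1 (−0.62), Adamts9 (−0.92) and Timp2 (0.67) in Nfkbiz f/f and of Timp2 (0.32) in Nampt f/f were lost when single libraries were left out. Their values then lay between −0.49 and −0.63, at −0.81 or −0.88, between 0.67 and 0.68 and between 0.24 and 0.32. Without the first GFP library or the first GFP and IL-1β library, 3 members remained past the threshold in Nfkbiz f/f instead of 6. Placed in one model with the wild-type libraries, none of these interactions passed for any member. There 1.25%, 3.07% and 0.152% of genes passed in the Ldha, Nampt and Nfkbiz lines, and the cause was not tested.

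The lines could be compared directly. With GFP virus, the IL-1β response of Nfkbiz f/f differed from that of Ldha f/f for 3 of 8 members (1.78% of genes) and from that of Nampt f/f for 2 of 8 (2.9%), and those of Ldha f/f and Nampt f/f differed for 0 of 8 (0.00625%, with 5.33% at an unadjusted p of 0.05 or less). Adamts5 responded more in Nfkbiz f/f, by 1.51 (SE 0.14, adjusted p = 0.00017) against Ldha f/f and 1.71 (SE 0.14, adjusted p = 4.5e-05) against Nampt f/f. Adamts1 did so by 0.82 (SE 0.09, adjusted p = 0.000337) and 0.81 (SE 0.09, adjusted p = 0.000368). Timp3 responded by −0.65 (adjusted p = 0.0119) against Ldha f/f, a call lost when any of 4 libraries was left out (−0.57 to −0.66). Nfkbiz f/f had started lower for Adamts5, at 15.7 and 14.6 CPM, and for Adamts1, at 121 and 118 CPM, than any library of the other lines with GFP virus alone. Since every Nfkbiz f/f library belongs to set 2, the test was repeated in that set. There the other lines have 1 library a group and the spread comes from Nfkbiz f/f. The differences were then 1.58 and 1.72 for Adamts5 and 0.77 and 0.78 for Adamts1, all past the threshold. Nothing else that separates the line, such as its mice, can be told apart from the floxed gene. Markers of other cells also set the line apart. In its 8 libraries the fibroblast or perichondrium markers summed to 507 to 823 CPM, where the 16 libraries of the other lines had 1720 to 4300 CPM. Skeletal muscle markers summed to 1.85 to 5.57 CPM against 14.3 to 32.5 CPM. Macrophage markers went the other way in each condition, with 18.4 to 51.4 CPM against 13.7 to 25.5 CPM in Ldha f/f and 11.2 to 24.1 CPM in Nampt f/f. The ranges of endothelial and erythroid markers over all conditions overlapped between the lines. These marker differences stand beside the lower Adamts4 of Nfkbiz f/f and its lower Adamts1 and Adamts5 with GFP virus alone. They also stand beside its lower Adamts12 in like conditions, except with Cre virus and IL-1β, where its values overlapped those of Ldha f/f. The part of the markers in those values was not tested.

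The effect of Cre virus with IL-1β in Nfkbiz f/f differed from that in Ldha f/f for 8 of 8 members (22.5% of genes) and from that in Nampt f/f for 7 of 8 (32.2%). The effects in the Ldha and Nampt lines differed for 0 of 8 (0.138%, with 10.1% at an unadjusted p of 0.05 or less). Within set 2 the counts were 2 of 8 (9.29% of genes) and 4 of 8 (17.4%). The differences that held there were those of Adamts5 (0.87 against Ldha f/f, 0.88 within set 2, and 1.32 against Nampt f/f, 1.18 within set 2) and Adamts9 (−0.77 and −0.96, and −0.70 and −0.89). Adamts1 (0.87 and 0.80) and Adamts4 (−1.59 and −1.54) held against Nampt f/f. Adamts4 against Ldha f/f was −0.93 (adjusted p = 0.0401), and −0.40 without the second Nfkbiz f/f library with GFP virus and IL-1β. The remaining differences, for Adamts12 (1.10 and 1.21), Timp1 (−0.38 and −0.37), Timp3 (0.49 and 0.51) and, against Ldha f/f, Adamts1 (0.63) and Timp2 (0.42), did not pass within set 2. As single libraries were left out, the calls of Adamts12 and Timp1 against both lines and of Adamts4 against Ldha f/f were lost, and the other 5 against each line were kept.

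Without IL-1β, the Cre effect of Nfkbiz f/f differed from that of Ldha f/f for 1 of 8 members (1.08%), Timp3 at −0.53 (adjusted p = 0.0245), and from that of Nampt f/f for 3 of 8 (3.43%), Adamts1 at 0.54, Adamts5 at 0.71 and Timp3 at −0.70. No member passed within set 2, where 0.151% and 0.423% of genes did, and as single libraries were left out only the Timp3 call against Nampt f/f was kept throughout. The Adamts5 value was as low as 0.43 and as high as 0.94 in those fits. Ldha f/f and Nampt f/f again differed for 0 of 8 (0.0299%, with 3.92% at an unadjusted p of 0.05 or less).

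These shifts changed which proteinase transcripts made up the set. Per kilobase of exon, the 5 ADAMTS genes summed to 18.1 to 52.6 RPKM over the 24 libraries, and Adamts1 made up 56.4% to 85.9% of the sum. In Ldha f/f with GFP virus, Adamts5 was 10.9% and 11.2% of the sum and Adamts4 2.36% and 2.53%. With IL-1β, Adamts5 was 21.8% and 18.6%. With Cre virus and IL-1β, Adamts5 was 9.62% and 8.67% and Adamts4 14.5% and 13%. With Cre virus and IL-1β in Nampt f/f the shares were 5.97% to 6.03% for Adamts5 and 20.1% to 21.5% for Adamts4, so that Adamts4 transcripts outnumbered those of Adamts5 per kilobase in that condition in both lines. In Nfkbiz f/f with Cre virus and IL-1β, Adamts5 was 12.4% to 14%, and Adamts4 stayed the lesser of the pair. The inhibitors summed to 489 to 744 RPKM, of which Timp3 made up 9.91% to 45.8% and Timp1 24.7% to 70.7%. These are sums of transcripts, with no weight for the activity of each enzyme.

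**Figure D4:**
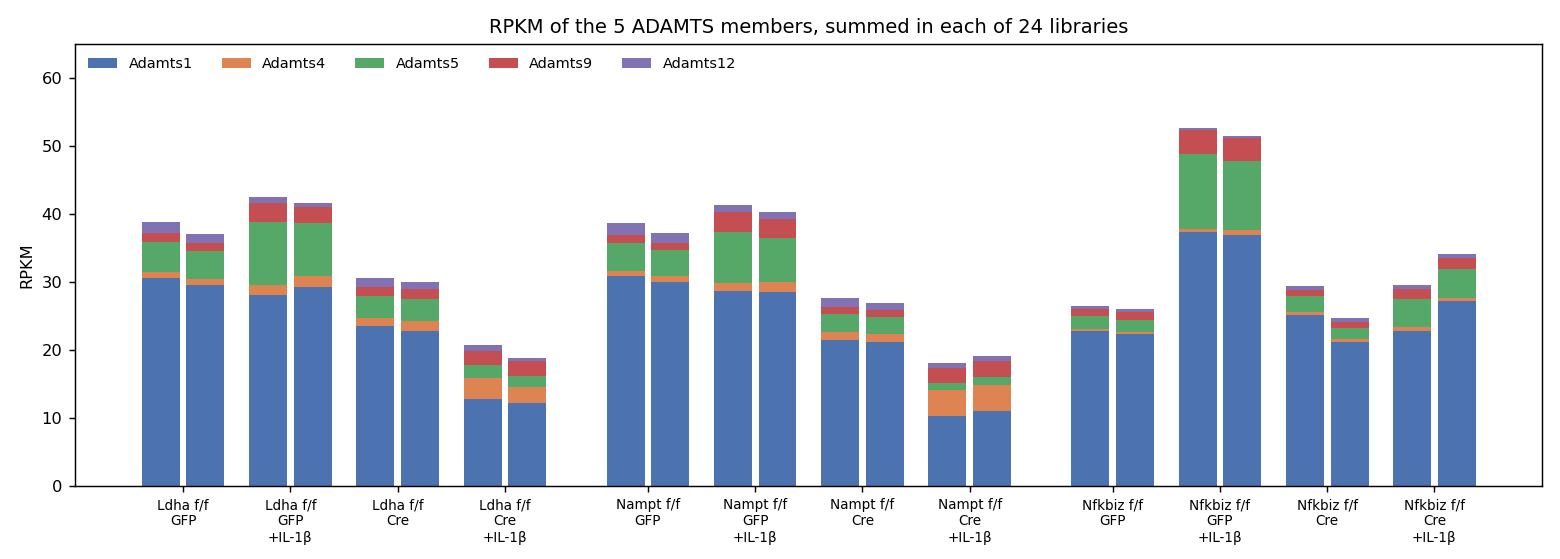
RPKM of the 5 ADAMTS members stacked for each of the 24 libraries of the floxed lines, with 2 bars a group. Adamts1 is the tallest part of every bar, and the Adamts4 part is largest, at 20.1% to 21.5%, in Nampt f/f with Cre virus and IL-1β.

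The other genes of the pathway were taken from fixed lists. Beside the counts of these lists, 28% of all genes tested over the 12 GFP-virus libraries passed as higher with IL-1β and 28.3% as lower. Of the substrates, 4 of 5 were tested over the 12 GFP-virus libraries, and IL-1β lowered 3 and raised 1, with a median log2 fold change of −1.27. Acan, which encodes aggrecan, fell by 2.09 (SE 0.06, adjusted p = 6.31e-14), Bcan, the brain proteoglycan brevican, by 1.35, and Comp, cartilage oligomeric matrix protein, by 1.18. Vcan, versican, rose by 1.14 (SE 0.07, adjusted p = 4.82e-10). With IL-1β, Cre virus lowered Acan further in Ldha f/f (−0.85) and Nampt f/f (−0.82), and Acan was 0.37 (adjusted p = 0.149) in Nfkbiz f/f.

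Genes for the activation, binding and clearance of ADAMTS proteinases were split, with 4 of 9 higher and 4 lower with IL-1β and a median of −0.004. Sdc4, a cell-surface proteoglycan that ADAMTS5 binds, rose by 1.40 and Sdc1, a related syndecan, by 0.57. Pcsk5, a proprotein convertase, rose by 0.97, and Pcsk6, another convertase, fell by 1.42. A2m, a broad proteinase trap, fell by 0.60 and Reck, a membrane inhibitor, by 0.55. With Cre virus and IL-1β the counts higher and lower were 3 and 6 of 9 in Ldha f/f and in Nampt f/f, and 2 and 3 of 9 in Nfkbiz f/f. Of all genes, 16.9% and 17% passed as higher and lower in Ldha f/f, 25% and 23.4% in Nampt f/f, and 8.16% and 9.2% in Nfkbiz f/f. Pcsk5 was lower in each, by −1.99, −1.93 and −1.24, as was Sdc4, by −0.56, −0.46 and −1.15.

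Of 7 metalloproteinases that TIMPs inhibit, 6 rose with IL-1β and 0 fell, with a median of 0.66, and Mmp3, Mmp9, a gelatinase, and Mmp13, the main collagenase of mouse cartilage, rose most, by 9.92, 2.86 and 2.66. With Cre virus and IL-1β, Mmp13 was lower in the Ldha, Nampt and Nfkbiz lines (−2.21, −2.45 and −1.52), while Mmp9 was higher in Ldha f/f (1.14) and Nampt f/f (2.13) and at −0.13 (adjusted p = 0.873) in Nfkbiz f/f. The other ADAMTS proteinases were tested for 8 of 14 genes, with 3 higher, 3 lower and a median of −0.18. Adamts7, a relative of Adamts12 that cleaves cartilage oligomeric matrix protein, rose by 1.95 and Adamts8 by 1.54, and Adamts17 fell by 0.71. Cre virus with IL-1β raised Adamts7 by 1.59 and 2.5 in Ldha f/f and Nampt f/f, where Nfkbiz f/f gave 0.04 (adjusted p = 0.913), and raised Adamts8 by 2.05, 1.95 and 2.79. Of the ADAMTS-like proteins, which lack the proteinase domain, 0 of 5 tested rose and 2 fell with IL-1β, with a median of −0.05. Adamtsl1 fell by 1.47.

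By the root mean square difference of centred log2 CPM over the 32 libraries, among 14254 genes, the gene nearest to Adamts1 was Col5a2 (0.277), that nearest to Adamts5 was Lox (0.362), followed by Ptx3 and Medag, and that nearest to Adamts4 was Col23a1 (0.391). Runx1 was nearest to Adamts9 (0.267), Col8a2 to Adamts12 (0.327), Dpy19l1 to Timp1 (0.312) and Ap3d1 to Timp2 (0.136), which itself varied least. Dlk2 was nearest to Timp3 (0.348), and Syn3, which shares exonic bases with it, came next (0.363). The libraries share virus, line and depth, and these are descriptions of the level pattern only.

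In wild-type chondrocytes, the groups as labelled held libraries that went against each other, so each value is given by its library. Adamts5 was 65 CPM in the set 1 library labelled untreated, 36.3 in that labelled FX11, 199 in that labelled IL-1β and 90.6 CPM in that labelled with both. In set 2 the libraries with the same labels had 51.1, 127, 34.5 and 61.3 CPM. Within set 1 the library labelled IL-1β was the highest of the 4, and within set 2 that labelled FX11 was.

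The other members split in the same way. Timp3 was 1880, 2250, 492 and 434 CPM in set 1 in the order untreated, FX11, IL-1β and both, and 807, 287, 1150 and 474 CPM in set 2. Timp1 was 256, 213, 719 and 400 CPM in set 1 and 129, 380, 83.5 and 156 CPM in set 2. The libraries labelled FX11 and IL-1β in set 2 thus stood on opposite sides of those in set 1 for these genes. Adamts4 had 6.55, 4.23, 12.5 and 9.17 CPM in set 1 and 10.5, 17.7, 4.55 and 10.8 CPM in set 2. Adamts9 had 21.5, 14.7, 81.2 and 50.6 CPM in set 1 and 32.4, 106, 19.3 and 35.4 CPM in set 2.

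In the libraries labelled with both agents, against those labelled IL-1β, Adamts1 was 126 against 236 CPM in set 1 and 79.8 against 84.2 CPM in set 2. Over the labelled groups, 0 of 8 members passed in the comparisons of IL-1β with untreated, FX11 with untreated, both with IL-1β and both with untreated (0% of genes in each by edgeR, with 0.99%, 0.44%, 0.66% and 5.56% at an unadjusted p of 0.05 or less). The lowest adjusted p of a member was 0.873, for Adamts12 with both agents (−1.38). The standard errors reached 0.98 on the log2 scale, and whether changes of the size seen with GFP virus could be detected at this spread was not tested. Leaving out the set 2 libraries labelled IL-1β and FX11 left 1 library under each of these labels. Too few remained to judge the members from that fit.

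**Figure D5:**
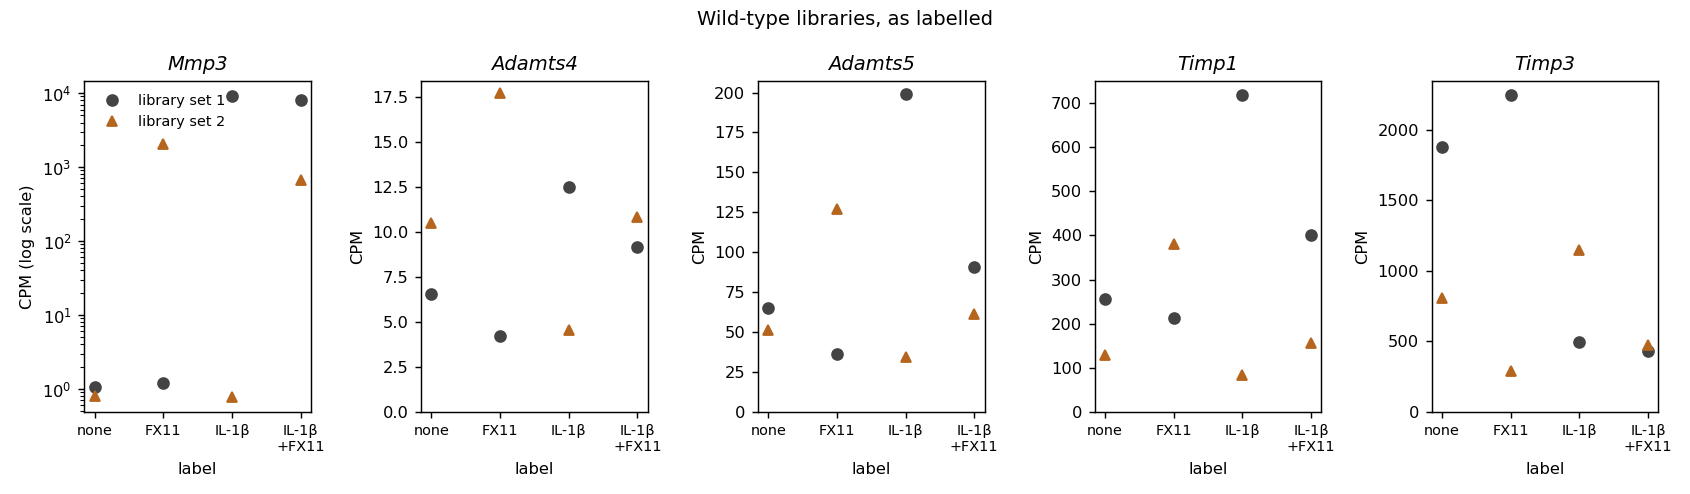
CPM of Mmp3 (log scale) and of Adamts4, Adamts5, Timp1 and Timp3 in the 8 wild-type libraries by their labels, with circles for library set 1 and triangles for set 2. In set 2, Mmp3 is at 2020 CPM in the library labelled FX11 and at 0.784 CPM in that labelled IL-1β, and the members follow the same reversed places.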

How the data were processed

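Total RNA depleted of ribosomal RNA was sequenced from 32 libraries. Per the labels the authors aligned reads to GRCm38 with STAR 2.0.4b and counted them per gene with featureCounts 1.45. The deposited files, 1 a library, hold raw counts, CPM and RPKM per gene, and the deposited CPM and RPKM were checked against the counts and not tested. The members and gene lists were chosen with earlier results of these data known.

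Counts were tested with edgeR 4.0.16 in R 4.3.3 (quasi-likelihood F-test, TMM, Benjamini-Hochberg adjustment over all genes tested, threshold 0.05), after leaving out 355 ribosomal RNA genes and keeping genes above 1 CPM in at least the smallest group size minus 1 libraries. Each floxed line was fitted on its 8 libraries, the pooled IL-1β comparison on 12 with line and set as terms, Cre effects between lines on 24, and wild type on 8. Adjusted p-values come from this test. The script was tested on simulated counts. Alternatives were DESeq2 1.42.0, limma 3.58.1 (voom with quality weights, the study's test), another normalisation, other filters, other sets of libraries, a replicate block and each library left out. Likeness used log2 of CPM plus 0.5. Named genes were the members, genes that check the labels, at most 3 higher and 3 lower genes of each list with the largest change with IL-1β, Acan and Vcan, and the 3 nearest genes of each member. A few further values, of Kdr and Pecam1 among them, were chosen after they were seen. Libraries of a group differed by more than sampling noise, with a median chi-square per gene of 1.38 to 15.3 where 0.455 is that of 1 library counted again.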

Additional observations from a re-analysis of the deposited data

Results flagged for a closer look

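The values below were singled out because a contrast differed between groups in a test of the difference itself (edgeR's quasi-likelihood test), and all are differences of log2 fold changes. The response to IL-1β differed between Cre virus and GFP virus in Ldha f/f by −0.79 for Adamts1, −1.85 for Adamts5, −0.56 for Timp1 and 0.67 for Timp3. In Nampt f/f it differed by −0.90 for Adamts1, 1.09 for Adamts4, −2.00 for Adamts5, −0.51 for Timp1, 0.32 for Timp2 and 0.47 for Timp3. In Nfkbiz f/f it differed by −0.62 for Adamts1, −1.44 for Adamts5, −0.92 for Adamts9, −1.06 for Timp1, 0.67 for Timp2 and 1.64 for Timp3.

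Between lines, the response to IL-1β with GFP virus in Nfkbiz f/f differed from that in Ldha f/f by 0.82 for Adamts1, 1.51 for Adamts5 and −0.65 for Timp3, and from that in Nampt f/f by 0.81 for Adamts1 and 1.71 for Adamts5. The effect of Cre virus with IL-1β in Nfkbiz f/f differed from that in Ldha f/f by 0.63 for Adamts1, −0.93 for Adamts4, 0.87 for Adamts5, −0.77 for Adamts9, 1.10 for Adamts12, −0.38 for Timp1, 0.42 for Timp2 and 0.49 for Timp3. Against Nampt f/f the differences were 0.87 for Adamts1, −1.59 for Adamts4, 1.32 for Adamts5, −0.70 for Adamts9, 1.21 for Adamts12, −0.37 for Timp1 and 0.51 for Timp3. Without IL-1β they were −0.53 for Timp3 against Ldha f/f, and 0.54 for Adamts1, 0.71 for Adamts5 and −0.70 for Timp3 against Nampt f/f. The Nfkbiz f/f libraries all belong to library set 2.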

How the results depend on the processing

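Over all alternatives, 1455 of 1657 values of called members kept their direction and their call, 202 lost the call and 0 changed sign. Of the losses, 89 of 101 came with all 32 libraries in one model, 86 of 648 with 1 library left out, and 27 of 908 elsewhere. In the 32-library model 0 members passed in the 3 interactions, against 1.25%, 3.07% and 0.152% of genes in the Ldha, Nampt and Nfkbiz lines. It also gave 0 members in the Cre effects without IL-1β in Ldha f/f and Nampt f/f, against 0.421% and 1.25%. For the differences of Nfkbiz f/f from Ldha f/f and Nampt f/f it gave 0 members throughout. Of genes, 0% and 0% passed there for the IL-1β response and 4.18% and 10.4% for the Cre effect with IL-1β. Without IL-1β the Cre effect gave 0.0527% and 0.14%. In that model, Cre virus with IL-1β gave 2, 4 and 1 members in the Ldha, Nampt and Nfkbiz lines (13.6%, 25.6% and 3.61% of genes). IL-1β gave 0, 0 and 3 members with GFP virus (6.3%, 9.73% and 9.3%) and 0, 2 and 0 with Cre virus (15.6%, 20.3% and 3.89%). Both agents in wild type gave 1 member (7.69%). The cause was not tested. A model of the 24 floxed libraries, added after seeing the data, gave interaction counts of 4, 5 and 6. Within set 2, also added then, differences between lines fell to 2 and 4 members with IL-1β and to 0 and 0 without. The 4 libraries compared alone gave 1 member for Cre virus without IL-1β in Ldha f/f. The share of all genes passing is not given for that fit or for the model of the floxed libraries. These counts therefore cannot tell a shift of the members from a shift of all genes.

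Replicate numbers are those of the 2 library sets in the Ldha and Nampt lines and in wild type. Both replicates of each Nfkbiz f/f group are in set 2, so that there the number is only a name and no block was fitted. With a replicate block, 7 members passed for Cre virus without IL-1β in Nampt f/f instead of 4, and same-numbered libraries deviated together with r of 0.33 to 0.54 in Ldha f/f, 0.34 to 0.44 in Nampt f/f and −0.16 to 0.73 in wild type. No count besides that one changed by over 1.5 times with the block, though the interaction in Ldha f/f went from 4 to 6 members.

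With each library left out, the interaction counts were 4 to 4, 5 to 6 and 3 to 6 in the Ldha, Nampt and Nfkbiz lines. The Cre effects with IL-1β gave 5 to 6, 6 to 7 and 6 to 6 members, and those without gave 0 to 2, 3 to 4 and 0 to 0. The Cre differences of Nfkbiz f/f from Ldha f/f and Nampt f/f gave 5 to 7 and 6 to 7 with IL-1β and 0 to 1 and 1 to 3 without. Shares of all genes are not given for these fits, so the ranges cannot tell a shift of the members from a shift of all genes. Depth limits Adamts4 and Adamts12, which had as few as 29 and 30 counts, and Timp4.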
